A study of Drosophila melanogaster with 6 samples.

Results

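The odorant-binding protein genes of Drosophila melanogaster were followed in S2* cells given 20-hydroxyecdysone (20E), the moulting steroid of insects. Every probe set of the Affymetrix Drosophila 2.0 array whose annotation names exactly 1 gene, with a symbol that begins with Obp and a digit, was taken. This gave 50 of the 18769 probe sets, for 47 of the 11982 genes named alone on a probe set, 3 of which (Obp19a, Obp19c and Obp59a) have 2 probe sets each. The RefSeq gene table lists 51 genes with such symbols. Of the other 4, Obp50b, Obp50c and Obp57d are named only on 4 probe sets shared with another gene, and Obp83a on none, so they are not analysed here. Cells treated with 1 µM 20E for 24 h (3 arrays) were compared with untreated cells (3 arrays), 1 array of total RNA per sample. S2* is a variant of S2, a cultured line with haemocyte-like properties derived from embryos, and both groups were grown in Schneider's medium with 10% serum at 27 °C. For untreated cells the labels give neither a duration nor a solvent, so neither can be told apart from the hormone. Nor do the labels tell whether replicates came from different cultures, and the p-values therefore reflect the variation among these 6 arrays, possibly technical alone.

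Odorant-binding proteins are small secreted proteins, held together by disulphide bonds between conserved cysteines, that carry hydrophobic ligands through watery fluids. They are best known from the lymph of antennal sensilla, where LUSH carries a pheromone to the neurons, but many members are made outside the antenna, in taste organs, fat body, male reproductive glands and glia. 20E drives moulting and metamorphosis by binding the EcR and usp receptor pair, and in haemocyte-like lines it slows growth and changes cell shape.

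The arrays held between 9 and 456 empty cells and had median deposited intensities of 43.2 to 56.4. Array 2 of the 20E cells and array 1 of the untreated cells stood apart on the second principal component (29.3% of the variance), at 69.9 and −47.8, while the other 4 arrays lay between −23.7 and 21. Known 20E responses were present in the treated cells, since Hsp27 differed by 5.70 ± 0.20 and Eip78C by 2.78 ± 0.20 on the log2 scale (SE, limma adjusted p = 3.81e-05 and 0.000669), while EcR differed by 0.87 ± 0.34 (adjusted p = 0.247). Of 15 probe sets for haemocyte markers, 3 rose (srp, Col4a1 and vkg) and 1 fell (Nplp2) at an adjusted p under 0.05. That is 26.7%, against 5.10% of all probe sets tested. The others, those of Pxn, ush, PPO1 and PPO2 among them, did not reach this threshold. Hml, NimC1, eater, He, Sr-CI and lz had group means under 60 normalized intensity units in both groups.

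After 20E, Obp99b, Obp99a and Obp8a rose at an adjusted p under 0.05, and no odorant-binding protein probe set was lower at that threshold. They were the 3 of 50 probe sets that passed the test (6%), against 5.10% of all 18767 probe sets tested in either direction, 3.02% upward and 2.08% downward, so the share of the family that passed is close to that of the array as a whole. The median log2 difference of the 50 was −0.05, against −0.02 over all probe sets tested. The other 47 probe sets, for 44 genes, did not pass, with differences from −1.26 to 1.52 and a smallest adjusted p of 0.116. At an unadjusted p under 0.05 there were 10 members (20%), 8 higher and 2 lower, against 17.2% of all probe sets. Differences are on the log2 scale of normalized intensity plus 16 throughout, which compresses those of dim probe sets, and adjusted p-values are limma's, over all probe sets. In RNA of a whole culture, more cells that make a transcript and more transcript per cell cannot be told apart.

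Obp99a lies on chromosome arm 3R. Its probe set read 562, 997 and 799 normalized intensity units in 20E cells, against 76, 66 and 63.4 in untreated cells. The lowest 20E array lay far above the highest untreated one. Its mean was 786 ± 217 in 20E cells and 68.4 ± 6.67 in untreated cells (SD, n = 3 each), a ratio of 11.5, and its log2 difference was 3.21 ± 0.25 (SE, adjusted p = 0.000993).

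Obp99b, once named tsx (turn on sex-specificity), is known for its expression in the male fat body under the sex determination pathway. It read 574 and 837 units on 20E arrays 1 and 3, with an empty cell on array 2, against 13.7, 2.32 and −1.14 in untreated cells. Both 20E values were thus bright, and the untreated values were near or below 0. The log2 difference was 5.11 ± 0.35 (SE, n = 2 and 3, adjusted p = 0.00129). Because 1 of 3 untreated values was below 0, no ratio is given, and the difference ran from 3.46 with an offset of 64 to 7.57 with an offset of 1.

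Obp8a, on the X chromosome, encodes a protein known from the seminal fluid of male flies. Its probe set read 201, 283 and 214 units in 20E cells, against 30.2, 24 and 22.3 in untreated cells, and the groups lay far apart. The mean was 233 ± 44.4 in 20E cells and 25.5 ± 4.17 in untreated cells (SD, n = 3 each), a ratio of 9.13, and the log2 difference was 2.57 ± 0.21 (SE, adjusted p = 0.00122).

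**Figure D1:**
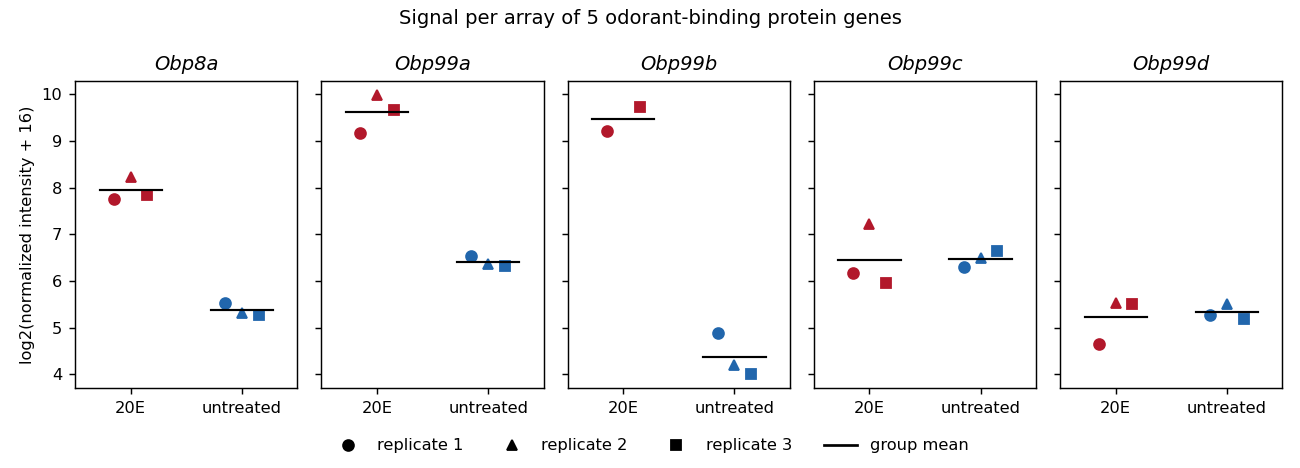
Signal of 5 odorant-binding protein genes on each array, as log2 of normalized intensity plus 16 (values below 0 set to 0), with 20E arrays at the left of each panel and untreated arrays at the right. Marker shapes give the replicate number and the black line the group mean; Obp99b has no value on 20E replicate 2. In Obp8a, Obp99a and Obp99b every 20E array lies above every untreated array, while in Obp99c and Obp99d the groups overlap.

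The calls of these 3 genes held under all 16 other settings tried, though some settings could hardly change them. The highest adjusted p over the 16 was 0.0193 for Obp8a, 0.0236 for Obp99a and 0.0498 for Obp99b, each without variance moderation. On leaving out 1 array at a time, the differences ran from 2.47 to 2.68 for Obp8a, from 3.06 to 3.39 for Obp99a and from 4.82 to 5.44 for Obp99b. Leaving out 20E array 1 or 3 left Obp99b with 1 treated value, which was then assumed to vary like the untreated ones. Obp99b has no value on 20E array 2, so leaving out that array removed none of its values. The filter took the mean over both groups. Obp8a and Obp99b, with untreated means of 25.5 and 4.95 units, cleared it through their 20E signal, so it was no check on them. Dropping probe sets that can match several transcripts left the 3 differences unchanged. The plot of settings shows that the offset moved all 3 differences more than any left-out array did.

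**Figure D2:**
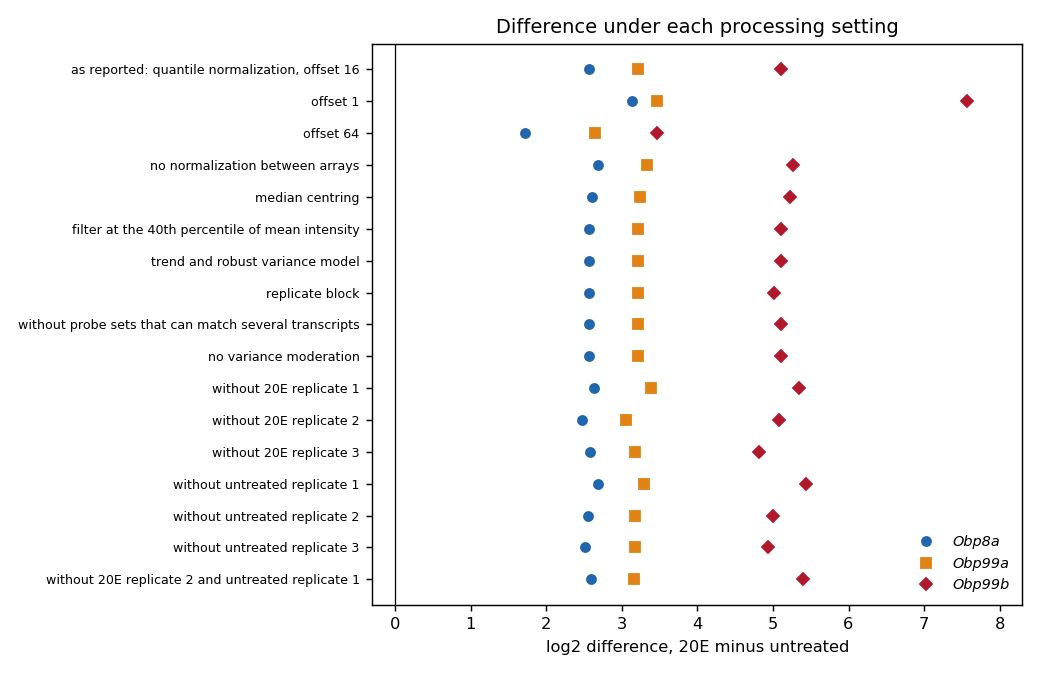
Log2 difference between 20E and untreated cells for Obp8a, Obp99a and Obp99b (x axis) under the setting used and 16 alternatives (rows). All points lie above 0, and the widest spread is that of Obp99b, from 3.46 to 7.57.

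Obp99a and Obp99b belong to a group of 4 odorant-binding protein genes on chromosome arm 3R, with Obp99c, Obp99d and several other genes between them in gene order. Obp99c read 56, 134 and 45.6 units in 20E cells, against 62.3, 73.9 and 84.1 in untreated cells. Array 2 of the 20E cells was high and the groups overlapped, with a log2 difference of −0.03 and a 95% interval from −0.87 to 0.81 (adjusted p = 0.983). Obp99d read 9, 30.4 and 29.4 units in 20E cells, against 22.7, 29.7 and 20.3 in untreated cells, and its difference was −0.10 with an interval from −0.78 to 0.59 (adjusted p = 0.92). Neither interval reaches the lower bound of Obp99a (2.62) or of Obp99b (4.24). The group's 4 genes thus had 2 rises and 2 that did not pass, and the change of one gene was not set against that of another in a test.

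The genes beside the risen members were looked at in chromosome order. Next to Obp99a, the ion channel subunit gene ppk19 read 77.6, 132 and 81.7 units in 20E cells, against 23.7, 0.179 and 37.3 in untreated cells, without overlap but short of the threshold (log2 difference 1.77 ± 0.46, adjusted p = 0.0878), while ppk30 on its other side differed by −0.19 (adjusted p = 0.745). Next to Obp99b, the ductus ejaculatorius peptide gene Dup99B differed by −1.01 (adjusted p = 0.279) and CG15506 by 0.22 (adjusted p = 0.717). Beside Obp8a, SmydA-9 differed by 0.44 (adjusted p = 0.64) and CG15368 by −0.52 (adjusted p = 0.341, n = 2 for 20E). None of the 6 immediate neighbours of the risen genes passed the test. Of the 63 probe sets for 52 genes that flank any odorant-binding protein gene, 1 passed (1.59%), with a median difference of 0.02. It was Npc2a, a sterol carrier gene beside Obp22a, which rose by 2.45 ± 0.20 (adjusted p = 0.00126), while Obp22a itself differed by −0.45 (adjusted p = 0.448).

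**Figure D3:**
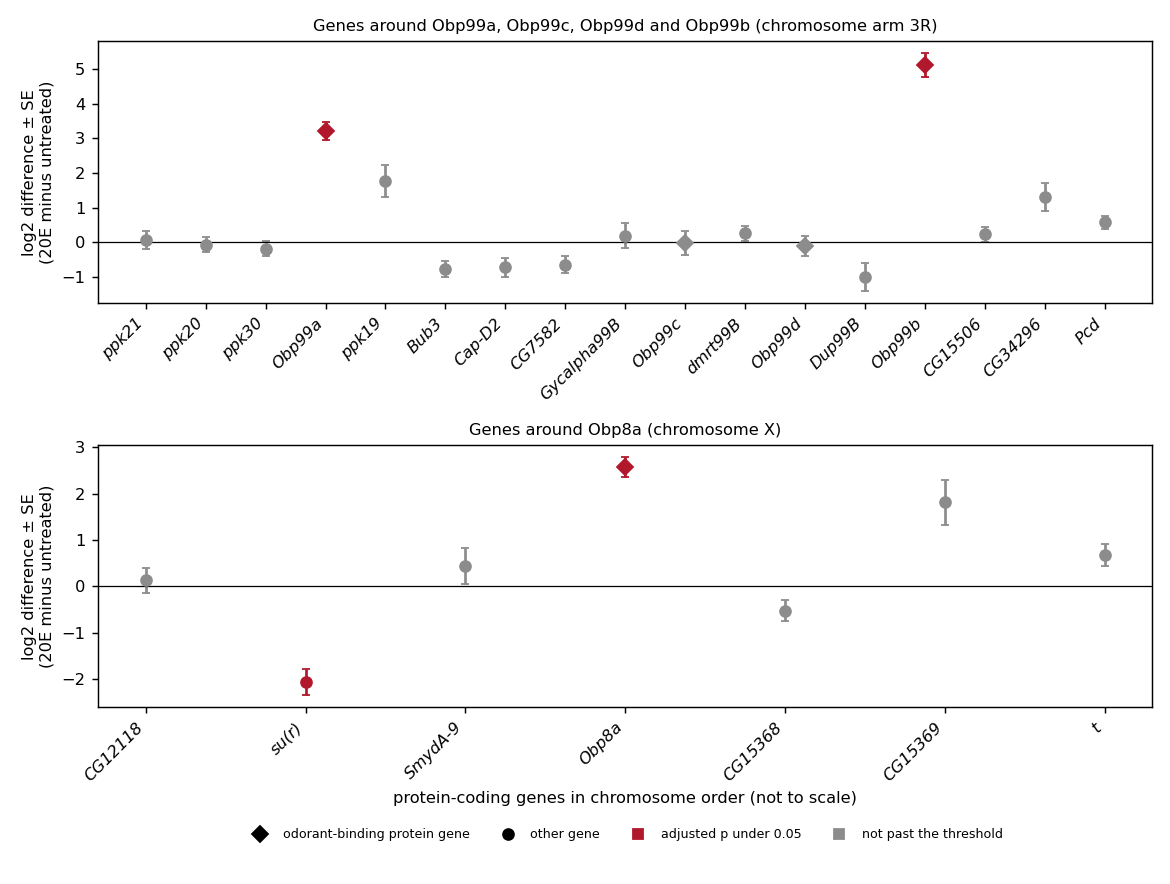
Log2 difference between 20E and untreated cells (points, ± SE) for protein-coding genes in chromosome order around the 4 Obp99 genes (top) and around Obp8a (bottom); spacing is not to scale. Diamonds are odorant-binding protein genes and red marks an adjusted p under 0.05. Obp99a (3.21) and Obp99b (5.11) stand above Obp99c and Obp99d between them, and in the lower panel Obp8a is higher and su(r), 2 genes away, is lower.

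Of the 7 genes whose proteins are known from seminal fluid, Obp8a rose and 6 did not pass (Obp22a, Obp51a, Obp56e, Obp56f, Obp56g and Obp56i), with differences from −0.81 to 0.23. Obp56f read 77.3, 37.1 and 81 units in 20E cells, against 106, 56.5 and 58 in untreated cells, and the groups overlapped (log2 difference −0.15 ± 0.33, adjusted p = 0.887). Obp56e lay lower on all 20E arrays, at 10, −1.02 and 11.7 units, against 24.5, 13.9 and 35.2 in untreated cells, but did not pass (log2 difference −0.81 ± 0.31, adjusted p = 0.238).

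Of 6 genes first known from the antenna (7 probe sets), none passed, with differences from −0.68 to 0.37. Obp83b, a major protein of pheromone-sensing and other sensilla, read 249, 71.1 and 59.6 units in 20E cells, against 109, 391 and 124 in untreated cells. One array in each group was far brighter than the others, 20E array 1 and untreated array 2, and the groups overlapped (log2 difference −0.68 ± 0.62, adjusted p = 0.67). Obp84a read 48.3, 64.6 and 40.4 units in 20E cells, against 48.3, 36.9 and 24 in untreated cells (log2 difference 0.37 ± 0.25, adjusted p = 0.548). For Obp19d the values were 38.7, 35.7 and 38.5 in 20E cells, against 48.4, 66.6 and 44.7 in untreated cells. All 20E arrays were lower for it, yet the difference of −0.35 ± 0.20 did not pass (adjusted p = 0.45). Obp28a, an abundant antennal protein in flies, differed by 0.09 ± 0.22 (adjusted p = 0.894), and Obp69a by −0.37 ± 0.22 (adjusted p = 0.465). Obp59a, a gene needed for humidity sensing, has 2 probe sets. One was lower on all 20E arrays but did not pass (log2 difference −0.64, adjusted p = 0.253). The other differed by 0.08 (adjusted p = 0.896), but its means lay near or below 0, at 0.0655 in 20E cells and −4.2 in untreated cells.

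The Plus-C members carry extra conserved cysteines. Of these 11 genes none passed, with differences from −1.26 to 0.95. Obp50a read 51.4, 98.2 and 52 units in 20E cells, against 32.8, 24.7 and 20.3 in untreated cells, with no overlap and the smallest adjusted p of the members that did not pass (log2 difference 0.95 ± 0.27, adjusted p = 0.116). Obp47b read 46.9, 77.2 and 53.9 in 20E cells, against 35.9, 32.6 and 9.58 in untreated cells, also without overlap (0.89 ± 0.33, adjusted p = 0.222). The same held for Obp58c, at 61.1, 89.3 and 75.1 in 20E cells, against 46.1, 52.5 and 44.8 in untreated cells (0.51 ± 0.20, adjusted p = 0.262). In all 3, 20E array 2 was the highest. Obp50e read 24.1, 97.8 and 96.4 in 20E cells, against 46.5, 37.3 and 70.3 in untreated cells (0.28 ± 0.44, adjusted p = 0.832). Obp46a was lower on average, at 2.52, 55.3 and 13.2 in 20E cells, against 19.5, 137 and 81 in untreated cells, with overlapping groups and the lowest difference of the family (−1.26 ± 0.67, adjusted p = 0.416). Obp49a, known for damping sweet taste when bitter compounds are present, differed by −0.07 ± 0.68 (adjusted p = 0.978), and Obp50d, Obp58b, Obp58d, Obp85a and Obp93a by −0.44 to 0.16.

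The 9 Obp56 genes lie on chromosome arm 2R, in separate stretches with other genes between them, and none passed (differences from −0.81 to 0.23). Obp56a gave the brightest probe set of the family in untreated cells. It read 332, 414 and 379 units in 20E cells, against 686, 354 and 799 in untreated cells, and the groups overlapped because untreated array 2 was low (log2 difference −0.61 ± 0.32, adjusted p = 0.413). Obp56h, known for a part in courtship, differed by −0.19 ± 0.24 (adjusted p = 0.768), and Obp56b, Obp56c and Obp56d by −0.33, −0.09 and 0.22 (adjusted p = 0.427, 0.933 and 0.834).

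Of the 4 Obp57 genes, known in part for expression in taste organs, none passed. Obp57b had the largest upward difference of the members that did not pass. It read 40.7, 91.6 and 45.1 units in 20E cells, against 32.5, −8.54 and 4.46 in untreated cells, without overlap (log2 difference 1.52 ± 0.46, adjusted p = 0.138). Without untreated array 1 it passed (2.03, adjusted p = 0.0444). Obp57e read 90.9, 395 and 118 units in 20E cells, against 53, 106 and 90.7 in untreated cells. The high value on 20E array 2 set its mean apart, and the difference of 0.90 ± 0.52 did not pass (adjusted p = 0.463). Obp57a and Obp57c differed by −0.30 and −0.38 (adjusted p = 0.744 and 0.617).

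Among the Obp19 genes of the X chromosome, none of 6 probe sets for 4 genes passed. The brighter probe set of Obp19a read 40.8, 122 and 56.6 units in 20E cells, against 69.5, 58 and 37.9 in untreated cells (log2 difference 0.25 ± 0.37, adjusted p = 0.818). Its other probe set read 10.9, 23.8 and 14.7 in 20E cells, against 18.9, 23.7 and 10.4 in untreated cells (−0.05 ± 0.25, adjusted p = 0.952). Obp19b, needed for the taste of some amino acids, was lower on all 20E arrays, at 33.3, 25 and 41.4 units, against 51.4, 44.5 and 64.4 in untreated cells (−0.50 ± 0.22, adjusted p = 0.316). The groups of Obp19c overlapped on both of its probe sets. One read 61.8, 116 and 74.4 in 20E cells, against 107, 106 and 80.9 in untreated cells (−0.22 ± 0.26, adjusted p = 0.755), and the other −3.84, 26.5 and 76.3 in 20E cells, against −1.64, 55.5 and 61.1 in untreated cells (−0.16 ± 0.81, adjusted p = 0.952).

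The remaining brighter members showed smaller differences. Obp47a read 107, 104 and 54.6 units in 20E cells, against 84.3, 68.6 and 98.4 in untreated cells (log2 difference 0.03 ± 0.28, adjusted p = 0.972). Obp73a read 86, 112 and 92 in 20E cells, against 83.5, 93.3 and 75.8 in untreated cells (0.17 ± 0.19, adjusted p = 0.747). Obp83g read 96.4, 94.8 and 41 in 20E cells, against 77.9, 63.2 and 60 in untreated cells (0.11 ± 0.31, adjusted p = 0.913). The groups of these 3 overlapped. None of the 4 Obp83 genes passed, with differences from −0.68 to 0.39. Obp83g, Obp83cd and Obp83ef lie together between Gasp and Vha14-2 on chromosome arm 3R, and Obp83b lies apart from them. Among the dimmer members, Obp44a, known from glia, was lower on all 20E arrays (32, 22.3 and 36.8 units, against 50.7, 41.4 and 38.1 in untreated cells) without passing (−0.36 ± 0.21, adjusted p = 0.464). Obp18a was higher on all 20E arrays but did not pass (0.82 ± 0.26, adjusted p = 0.146). Its means were only 20.6 units in 20E cells and 3.01 in untreated cells, where 1 of 3 values was below 0.

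**Figure D4:**
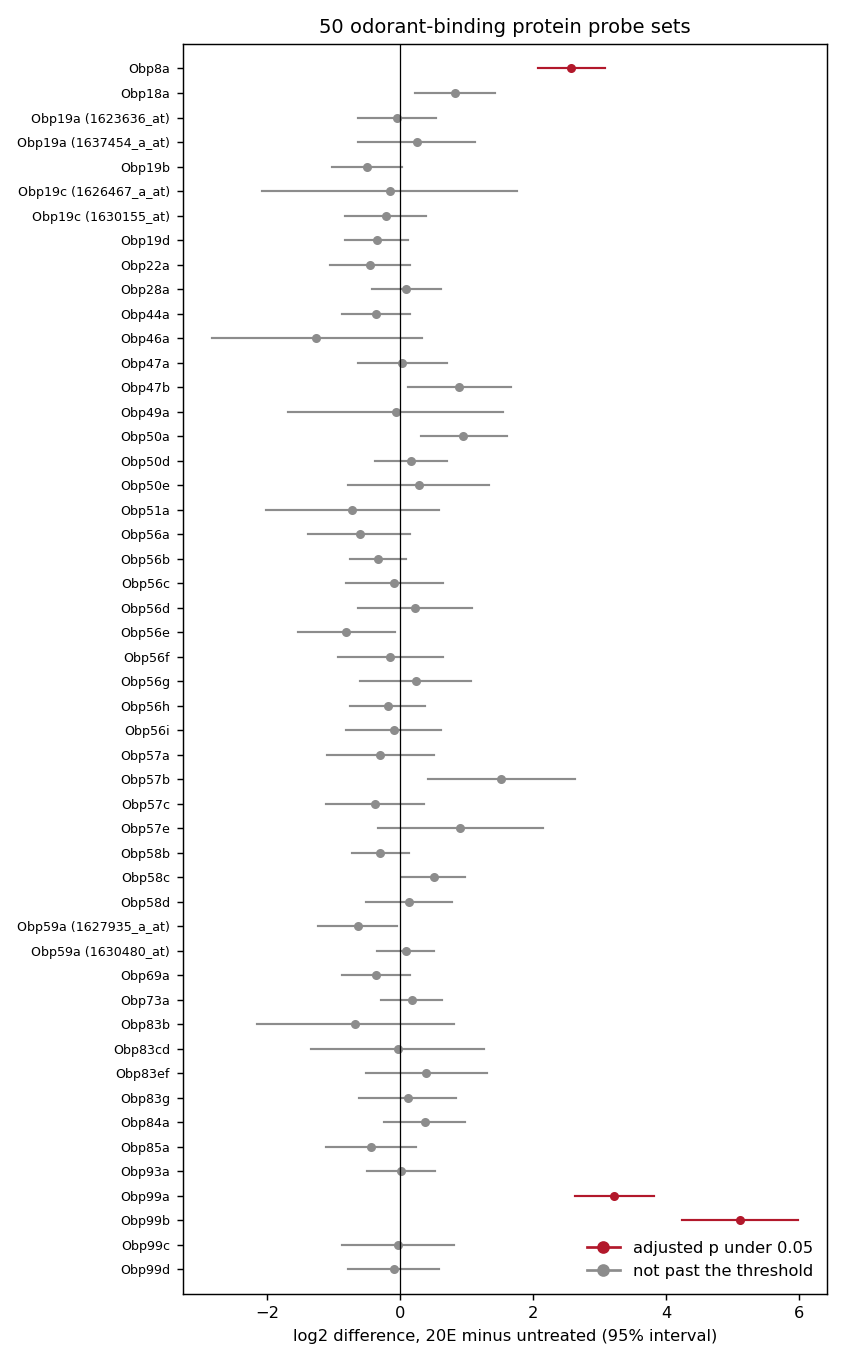
Log2 difference between 20E and untreated cells for the 50 odorant-binding protein probe sets, in order of their names, with 95% intervals from the fit; probe set IDs mark genes with 2 probe sets. Obp8a, Obp99a and Obp99b, in red, have intervals from 2.07 to 5.98, and the other 47 points lie between −1.26 and 1.52.

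Across the family, the 20E and untreated values did not overlap in 14 of the 49 probe sets complete on the 6 arrays (28.6%), 7 with 20E above and 7 with 20E below, against 22.7% of all complete probe sets, 10.4% with 20E above and 12.3% with 20E below. Of the members that did not pass, 20 differed upward and 27 downward, and only Obp46a and Obp57b differed by more than 1. Array 2 of the 20E cells was the highest of its group for 26 of the 49 and the lowest for 15, and untreated array 3 was the lowest of its group for 24. These counts were not made over all probe sets, so they do not show a trait of the family. The median SD within a group was 0.32 in 20E cells and 0.34 in untreated cells on the log2 scale, against 0.36 and 0.28 over all probe sets.

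Most of the family gave dim signals in S2* cells. The mean was under the median of all array values (50.3 units) for 31 of 50 probe sets in 20E cells and for 35 in untreated cells. Means above the upper quartile of all values (134 units) were found for 5 in 20E cells, namely Obp99a, Obp99b, Obp8a, Obp56a and Obp57e, and for 2 in untreated cells, namely Obp56a and Obp83b. Of the 299 member values, 11 were at or below 0 (3.68%), against 3.15% of all values. No detection call was used here, and probe sets bind their targets with different strength, so these signals do not rank the transcripts by abundance or show that a dim one was absent.

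**Figure D5:**
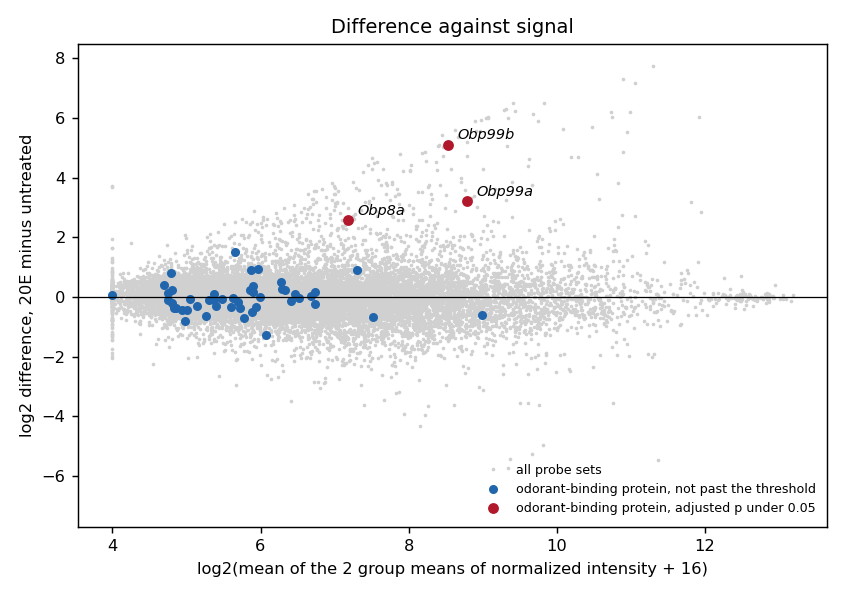
Log2 difference between 20E and untreated cells (y axis) against log2 of the average of the 2 group means plus 16 (x axis) for all probe sets (grey) and the 50 odorant-binding protein probe sets (blue, or red with an adjusted p under 0.05). The members crowd at low signal near 0, apart from Obp8a, Obp99a and Obp99b at 2.57, 3.21 and 5.11.

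Other genes of chemical sensing were called at shares near or below those of the array (5.10% in either direction, 3.02% higher and 2.08% lower). Of 63 odorant receptor probe sets 1 fell (1.59%), of 60 for ionotropic receptors 2 rose (3.33%), and of 63 for gustatory receptors none passed, with median differences of 0.05, −0.06 and −0.04. None of the 12 probe sets for CheA and CheB proteins, of the 4 for the separate chemosensory protein family and of the 12 for membrane and odorant turnover partners passed either. Ir48b read 184, 288 and 125 units in 20E cells, against 14.5, 11 and 17 in untreated cells (log2 difference 2.77 ± 0.30, adjusted p = 0.00397), and the groups lay far apart. Of 16 alternatives its call was lost in 1, without variance moderation (adjusted p = 0.051). Ir94f rose, at 28.5, 60.9 and 44 units in 20E cells, against 3.49, 2.45 and 9.03 in untreated cells (95% interval of the log2 difference 0.88 to 2.13, adjusted p = 0.0241). Or1a fell, at 4.24, 1.51 and −1.94 units in 20E cells, against 19.6, 18.7 and 20.9 in untreated cells (interval −1.45 to −0.56, adjusted p = 0.0304). Both signals were dim. Ir94f passed in 9 of 15 alternatives, and its call was lost without variance moderation, without 20E array 3, without any 1 untreated array and without both 20E array 2 and untreated array 1 (highest adjusted p = 0.111). Or1a passed in 4 of 15, and its call was lost with an offset of 1 or 64, with median centring, with the replicate block and on leaving out any 1 array or both of those arrays (highest adjusted p = 0.151). The odorant receptor partner Orco differed by 0.12 ± 0.21 (adjusted p = 0.858), and lush, an odorant-binding protein gene under another symbol, by 0.08 ± 0.20 (adjusted p = 0.903).

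Markers of olfactory tissue, neurons and fat body were read beside these results. None of 8 olfactory marker probe sets passed, Obp28a and Obp83b among them, with complete ones summing to 276 to 597 units in 20E cells, against 334 to 1102 in untreated cells. None of 10 neuron marker probe sets passed either, with sums of 411 to 593 units in 20E cells, against 474 to 523 in untreated cells. The 6 fat body marker probe sets had a median difference of 0.33, and 1 of them passed (16.7%, against 5.10% of all probe sets). It was Fbp2, which rose by 3.74 ± 0.31 (adjusted p = 0.00126). The 6 summed to 723 to 1076 units in 20E cells, against 250 to 273 in untreated cells. Bright probe sets weigh most in such a sum, so it does not show a rise of the list as a whole. The yolk protein genes Yp1 and Yp2 and the storage protein gene Lsp2 differed by 0.48, 0.02 and 0.17 and did not pass (adjusted p = 0.39, 0.983 and 0.793), Fbp1 differed by −0.81 (adjusted p = 0.135) and the lipoprotein gene apolpp by 2.08 (adjusted p = 0.19). The part of these markers in the rise of Obp99a and Obp99b was not tested.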

How the data were processed

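Total RNA of 3 20E and 3 untreated samples was hybridised to Affymetrix Drosophila 2.0 arrays, per the labels. The values deposited by the authors are linear intensities, 1 for each probe set on each array; how probes were summarised, corrected and scaled is not stated in the labels. Since array medians spanned 0.38 in log2, intensities were quantile normalized. Values below 0 were then set to 0, and log2(intensity + 16) was fitted by lmFit with eBayes (limma 3.58.1, R 4.3.3), with two-sided tests, Benjamini-Hochberg adjustment over 18767 probe sets and a threshold of 0.05. Quoted intensities are normalized, before the floor. Gene names came from the platform annotation, updated by gene number through a RefSeq table (Release 6 plus ISO1 MT), with 13544 of 13647 single-gene probe sets matched. The build of the array annotation is not given, so no coordinates are printed. The fit was tested on simulated data, with changes only in probe sets of above-median mean, so that test does not cover dim members.

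The members, gene lists and role groups were chosen with earlier results of these data known. Values on every array are given for members that passed, whose higher group mean reached the median signal, or whose groups did not overlap with a log2 difference of at least 1, with their other probe sets, and for Obp44a, Obp56e and Obp99d, chosen after their values were seen. Neighbours are the nearest protein-coding genes that are not odorant-binding protein genes. Alternatives changed the offset, normalization, filter, variance model, block, probe set types and arrays. Precision is limited by the 6 arrays.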

Additional observations from a re-analysis of the deposited data

How the results depend on the processing

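Obp8a, Obp99a and Obp99b passed under each of the 16 alternatives, 15 planned and 1 added after seeing the data, with the limits given above for the filter and the left-out arrays. The number of odorant-binding protein probe sets that rose was 3 under all alternatives but 2. It was 4 without untreated replicate 1, with Obp57b, and 5 without both 20E replicate 2 and untreated replicate 1, the added alternative, with Obp57b and Obp50a, where Obp46a also fell. On leaving out 1 array at a time it ran from 3 to 4. The family's median difference was 0.17 with a filter at the 40th percentile, which left 24 members, −0.07 to 0.02 on leaving out 1 array, and −0.14 without those 2 arrays. The count over all probe sets (957) was 567 with an offset of 1, 397 without variance moderation, 629 when probe sets open to several transcripts were dropped, 326 to 1173 on leaving out 1 array and 2183 without those 2 arrays. The calls split 567 higher to 390 lower, and 723 to 307 without normalization between arrays. Calls in the chemosensory and neighbour lists (4) numbered 2 to 6 on leaving out 1 array and 16 without those 2. The causes of these changes were not tested. The labels do not tell whether the replicate numbers pair the samples. Same-numbered arrays deviated together with r of 0.238, 0.374 and −0.0202, and arrays of unlike number with r from −0.397 to 0.338. With so few arrays these values do not settle it. With the replicate block 954 probe sets passed, 3 of them odorant-binding protein probe sets, all higher. Most members gave dim signals, and the offset compresses the differences of dim probe sets.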
